A study of Homo sapiens with 16 samples.

Results

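The mRNAs described here are the 7 best known transcripts of cellular iron control, FTH1, FTL, SLC40A1, TFRC, SLC11A2, ACO1 and IREB2. They were chosen by gene symbol, and all 7 were among the 13148 genes measured. The cells were human 293S, an established HEK293-family line, and either received 1 mM sodium arsenite for 30 minutes or were left untreated as the control. RNA of each culture was separated on a sucrose gradient, in which mRNAs that carry more ribosomes travel further. Each gradient was cut into 8 fractions and each fraction was sequenced as 1 library, so the 16 libraries are 16 groups of 1. There is no replicate, so neither an error nor a p-value can be attached to any difference below.

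The deposited value of a gene in a library is the share of its total, over the 8 fractions of that gradient, that lay in that fraction. Shares show where an mRNA lay and not how much of it there was, and the read depth behind them is unknown. Averaging the fraction numbers with these shares as weights gives the position of an mRNA. The shift is the position with arsenite minus that in the control, and the relative shift is the distance of a gene's shift from the median shift of all genes. Which end of the gradient was fraction 1 is not stated in the labels. Most mRNAs lay at lower numbers with arsenite: the median position of all genes was 3.10 with arsenite and 4.54 in the control, and the median shift was −1.46 fractions. How the authors weighted fractions against each other is likewise not stated. Reweighting by size factors (medians of ratios, which by construction give the typical gene the same value in all libraries) gave a median shift of −0.23, so comparisons below use the relative shift. Markers of the cell line could not be checked, since shares carry no expression level.

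Cells keep free iron in a narrow range mainly by controlling these mRNAs after transcription. A short hairpin, the iron-responsive element, has a loop of 6 bases that begins CAGTG and a single unpaired C on the 5′ side of its stem. The iron regulatory proteins IRP1 and IRP2, encoded by ACO1 and IREB2, bind the hairpin when iron is scarce. In the 5′ untranslated part of an mRNA the bound protein blocks the start of translation, as for the ferritins that store iron and for ferroportin that exports it. In the 3′ untranslated part it protects the mRNA from decay, as for the transferrin receptor that brings iron in.

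The hairpins are shown because they divide these mRNAs into the groups compared below. Sequences are from the GENCODE release 29 transcripts, which are on GRCh38, and are given 5′ to 3′ on the mRNA strand with T for U. Capitals mark the 6 bases of the loop.
FTH1, 5′ untranslated, chr11:61967575-61967602, minus strand: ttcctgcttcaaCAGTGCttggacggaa
FTL, 5′ untranslated, chr19:48965335-48965362, plus strand: ctcttgcttcaaCAGTGTttggacggaa
SLC40A1, 5′ untranslated, chr2:189580662-189580689, minus strand: caacttcagctaCAGTGTtagctaagtt
TFRC, first of 4 in the 3′ untranslated part, chr3:196050980-196051007, minus strand: aattatcggaagCAGTGCcttccataat
TFRC, last of 4, chr3:196050464-196050491, minus strand: aattatcgggaaCAGTGTttcccataat
SLC11A2, 3′ untranslated, chr12:50988270-50988297, minus strand: agccatcagagcCAGTGTgtttctatgg
Each was found by searching the sense strand for a C, any 5 bases, CAGTGN and any 5 bases, in which the 5 bases before the loop had to pair with the 5 bases after it (A-T, G-C or G-T). All 5 pairs formed in FTH1, FTL, SLC40A1 and TFRC. Among 13051 genes matched to a coding transcript, such a match lay in the 5′ untranslated part of 18 (0.138%) and in the 3′ untranslated part of 90 (0.69%), and 4 genes had more than 1 in the 3′ part. TFRC had 4 of them, at 941, 1345, 1410 and 1457 bases after the stop codon. The SLC11A2 hairpin formed 4 of the 5 pairs, a looser match that 4.56% of genes held in the 3′ part, and it was present in 5 of the 11 complete coding transcripts of SLC11A2. The values of SLC11A2 may therefore sum over forms with and without the hairpin, since the forms present in these cells were not measured. ACO1 and IREB2 had no match with 5 pairs, and each had 1 loose match in its 3′ untranslated part, 2881 bases after the stop codon in ACO1 and 2832 in IREB2.

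**Figure D1:**
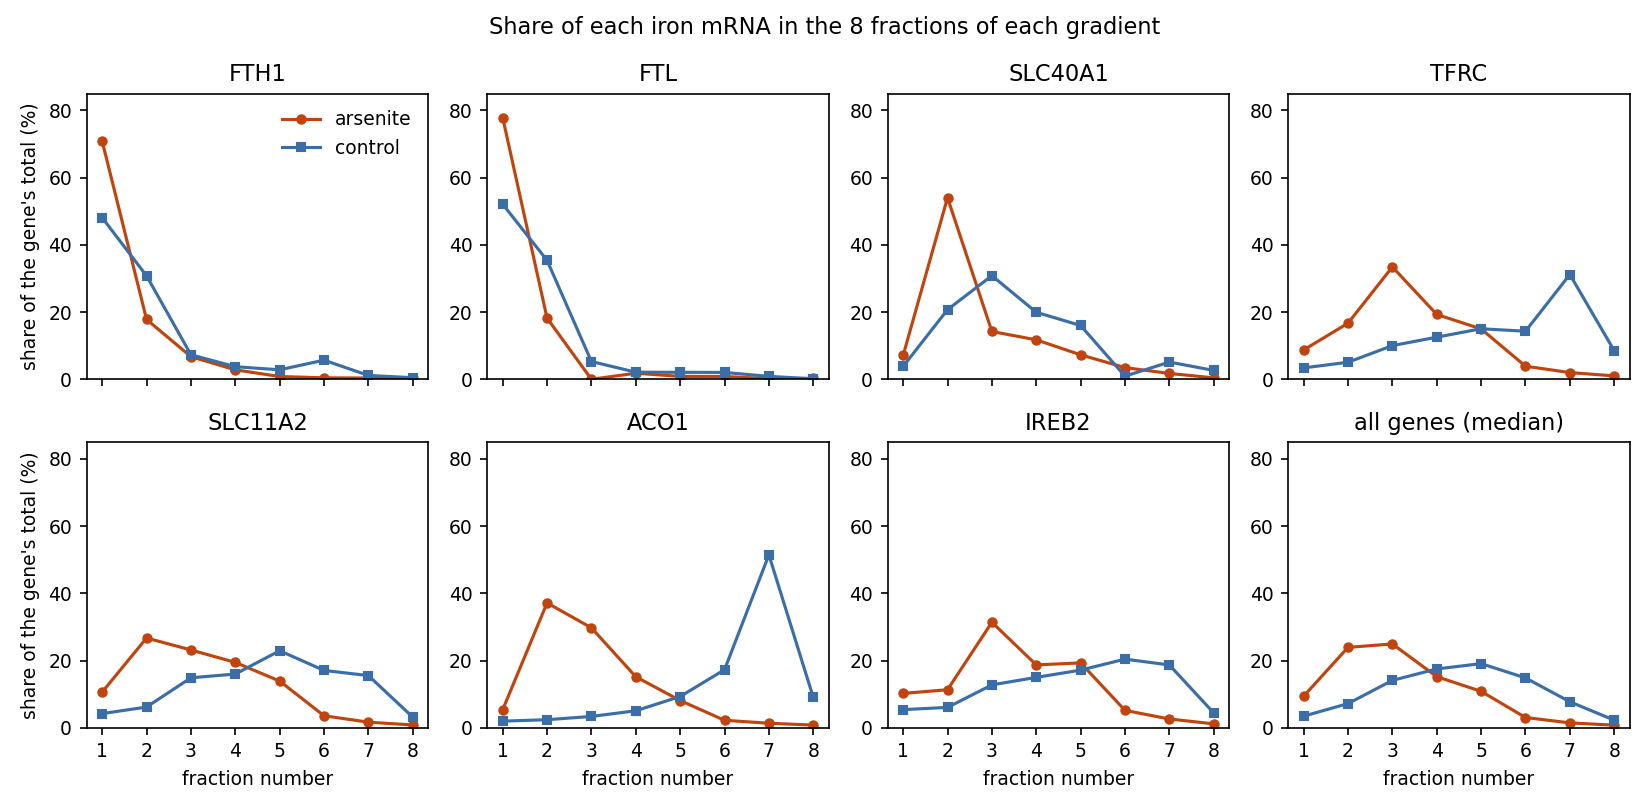
Share of each mRNA's total (y axis, percent) in fractions 1 to 8 (x axis) of the arsenite gradient (circles) and the control gradient (squares), 1 library per point, with the median share over all genes in the last panel. FTH1 and FTL peak in fraction 1 of both gradients, and ACO1 peaks in fraction 2 with arsenite and in fraction 7 in the control.

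The ferritin mRNAs lay at the low end of both gradients, and their share in fraction 1 was larger with arsenite. So was the median share over all genes in fraction 1, at 9.41% with arsenite and 3.47% in the control. FTH1 encodes the heavy chain of ferritin, which oxidises iron for storage. Its shares in fractions 1 to 8 with arsenite were 70.8, 17.8, 6.73, 2.81, 0.826, 0.437, 0.372 and 0.237%. In the control they were 48.1, 30.8, 7.29, 3.75, 2.82, 5.69, 1.14 and 0.48%. Fraction 1 was the largest in both gradients, and fractions 1 and 2 together held 88.6% with arsenite and 78.8% in the control. The share in fractions 5 to 8 was 1.87% with arsenite and 10.1% in the control, against a median over all genes of 16.4% and 53.9%. With size factors the share was 7.67% with arsenite and 4.37% in the control, the opposite direction. Size factors level the typical gene across libraries by construction, so this reversal cannot decide the direction. FTH1 lay at position 1.49 with arsenite and 2.07 in the control, where 9 genes lay lower. Only 1 of those 9, MAN1A2, had a value above 0 in every library.

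FTL encodes the light chain of ferritin, which helps the iron core to form. Its shares with arsenite were 77.8, 18.2, 0, 1.8, 0.866, 0.832, 0.193 and 0.273%. The control shares were 52.1, 35.4, 5.29, 2.11, 2.08, 2.04, 0.878 and 0.136%. The 0 in arsenite fraction 3 stands between 18.2% and 1.8% in the neighbouring libraries and is a value listed at 0, in the library where 728 genes were listed so, against at most 460 in any other. FTL lay at 1.34 with arsenite and 1.77 in the control, with 7 and 6 genes at lower positions. Fraction 1 was the largest in both gradients, as for FTH1. Fractions 5 to 8 held 2.16% with arsenite and 5.13% in the control. With size factors they held 7.83% with arsenite and 1.95% in the control, the opposite direction, with the same limit as for FTH1.

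The profiles of the chains were close to each other. The distance between 2 profiles is taken here as the percentage of one mRNA's total that would have to change fraction to give the other's profile. FTH1 and FTL were 7.92% apart with arsenite and 8.65% apart in the control, and FTL was the nearest of all genes to FTH1. The next nearest to FTH1 among genes with no 0 was TMEM219, at a mean of 14.0% over the 2 gradients, followed by MAN1A2, an enzyme that trims sugars of glycoproteins, at 14.4% and NTAN1, an enzyme of protein turnover that acts on N-terminal asparagine, at 16.4%. GENCODE lists 25 pseudogenes named after FTH1 and 16 named after FTL, so reads may have been shared with these copies and the values of both ferritins are uncertain to that extent.

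SLC40A1 encodes ferroportin, the iron exporter, and also carries its hairpin in the 5′ untranslated part. Its shares with arsenite were 7.11, 54.0, 14.2, 11.7, 7.28, 3.48, 1.74 and 0.426%. In the control they were 3.84, 20.7, 30.8, 19.9, 16, 0.929, 5.12 and 2.64%. The largest fraction was 2 with arsenite and 3 in the control, and the control profile was uneven, with fraction 6 below both of its neighbours. SLC40A1 lay at 2.78 with arsenite and 3.60 in the control, so it stood well above the ferritins in both gradients although all 3 carry the same kind of hairpin. It was 63.7% away from FTH1 with arsenite and 59.0% away in the control. Its nearest profiles among genes with no 0 were GTDC2 at 6.48%, the kinase PSKH1 at 6.62% and the phosphatase CTDSP1 at 6.91%, each a mean over both gradients.

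TFRC, the transferrin receptor, lay at high fraction numbers in untreated cells. Its shares with arsenite were 8.72, 16.7, 33.4, 19.3, 15.0, 3.89, 1.99 and 1.01%. The control shares were 3.39, 5.07, 10.0, 12.5, 15.0, 14.3, 31.2 and 8.51%. The largest fraction was 3 with arsenite and 7 in the control. Fractions 7 and 8 together held 3.01% of TFRC with arsenite and 39.7% in the control. With 1 percentage point added to both shares, the log2 ratio of arsenite to control was −3.43 in fraction 7, against a median over all genes of −1.86. The size of this ratio depends on the setting, as it was −1.09 with size factors and −1.78 with 10 percentage points added. TFRC lay at 3.40 with arsenite and 5.41 in the control. Its nearest profiles included the nuclear pore gene NUP155 at 3.40% and the N-terminal acetyltransferase subunit NAA15 at 4.00%.

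SLC11A2, the divalent metal transporter 1 that carries iron across membranes, was close to the typical mRNA. Its shares with arsenite were 10.6, 26.7, 23.2, 19.5, 13.9, 3.59, 1.68 and 0.848%. In the control they were 4.24, 6.18, 14.9, 16, 22.9, 17.1, 15.5 and 3.16%. Fraction 2 was the largest with arsenite and fraction 5 in the control. It lay at 3.21 with arsenite and 4.76 in the control, near the medians of all genes, and its relative shift was −0.10. Its nearest profiles were TAF1A, SMAD4 and TOR1AIP1, at 5.43, 5.5 and 5.56%.

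ACO1 and IREB2, the genes of the regulatory proteins, had unlike profiles. ACO1 encodes IRP1, which also serves as the cytosolic aconitase when it holds an iron-sulfur cluster. Its shares with arsenite were 5.37, 37.2, 29.7, 15.2, 8.12, 2.24, 1.36 and 0.82%. The control shares were 1.99, 2.42, 3.39, 5.07, 9.31, 17.3, 51.5 and 9.08%. Fraction 7 held 1.36% with arsenite and 51.5% in the control, and the control share there was above that of 99.8% of genes. ACO1 lay at 3.0 with arsenite and 6.20 in the control, and 65 genes had a lower shift than its −3.21 fractions. The profiles of ACO1 in the 2 gradients were 74.6% apart, more than for 97.3% of genes. Its nearest profiles were HADHA, a subunit of the enzyme of mitochondrial fat oxidation, at 6.11%, the ubiquitin protease USP11 at 6.24% and the replication helicase subunit MCM5 at 6.36%.

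IREB2 encodes IRP2, which senses iron through its own degradation. Its shares with arsenite were 10.2, 11.3, 31.4, 18.7, 19.3, 5.19, 2.62 and 1.18%. In the control they were 5.41, 6.08, 12.8, 15.0, 17.2, 20.4, 18.7 and 4.43%. The largest fraction was 3 with arsenite and 6 in the control, a flatter control profile than that of ACO1. IREB2 lay at 3.58 with arsenite and 4.91 in the control, and 28.3% of it lay in fractions 5 to 8 with arsenite against 60.7% in the control. With size factors these shares were 62.1% with arsenite and 60.1% in the control. The lower share with arsenite was thus seen only without that reweighting, which levels the typical gene across libraries by construction. ACO1 and IREB2 were 25.8% apart with arsenite and 37.4% apart in the control. The nearest profiles to IREB2 were TYW1, CRIM1 and CLCC1, at 3.94, 4.30 and 4.87%.

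**Figure D2:**
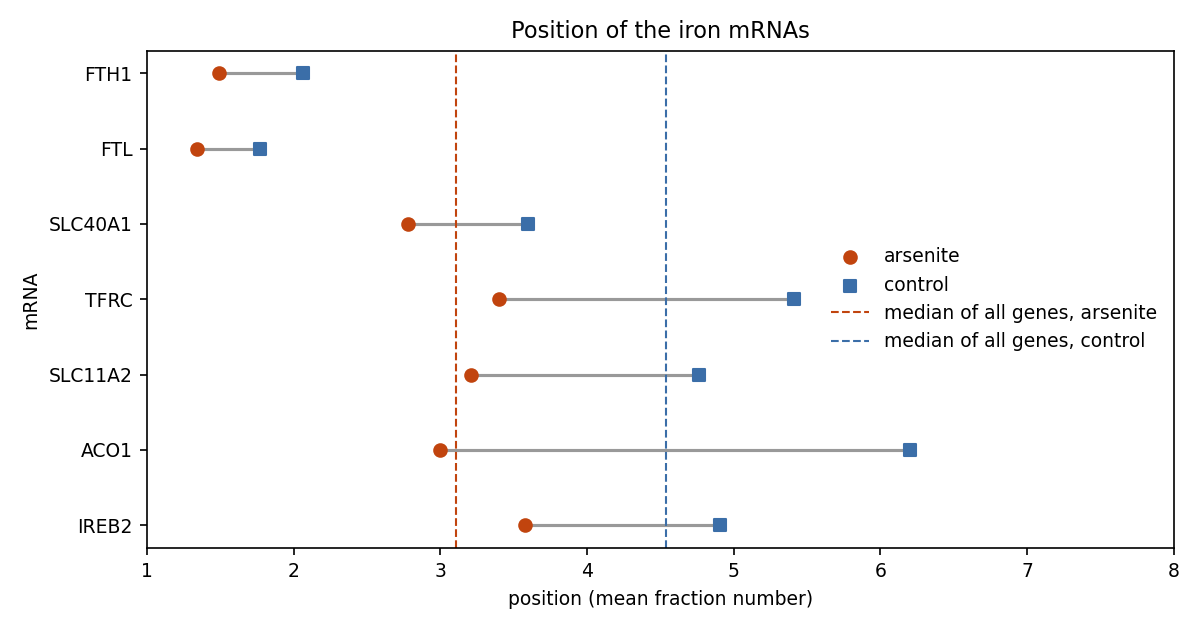
Position (mean fraction number, x axis) of the 7 mRNAs with arsenite (circles) and in the control (squares), 1 gradient each, with the median of all genes as dashed lines. Every mRNA lies lower with arsenite in the deposited shares, by −0.43 fractions for FTL to −3.21 for ACO1. With size factors, which take out most of the general shift by construction, FTH1, FTL and SLC40A1 lie higher.

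The order of the 7 mRNAs from low to high position was FTL, FTH1, SLC40A1, ACO1, SLC11A2, TFRC and IREB2 with arsenite, and FTL, FTH1, SLC40A1, SLC11A2, IREB2, TFRC and ACO1 in the control. The mRNAs with a 5′ hairpin thus held the lowest places in both gradients, and ACO1 changed place most. The positions spanned 2.23 fractions with arsenite and 4.43 in the control. With size factors FTH1 lay at 1.64 with arsenite and 1.54 in the control, SLC40A1 at 4.16 and 3.59, and FTL at 1.56 and 1.39. These mRNAs thus lay higher with arsenite. IREB2 lay at 4.99 in both gradients. TFRC at 4.77 and 5.89, SLC11A2 at 4.5 and 4.82 and ACO1 at 4.4 and 6.59 lay lower with arsenite with size factors too. Size factors take out most of the general shift by construction, leaving a median of −0.23 against −1.46. FTH1, FTL and SLC40A1 shifted less than the median gene, so this reweighting cannot decide the direction of their own shift.

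The word moved is kept below for genes that lay 0.5 fractions or more from the median shift and stayed on the same side of it whichever single fraction was dropped from both gradients. By this rule 3 of the 7 mRNAs moved higher relative to the median gene, against 23.6% of all genes, and 2 moved lower, against 24.0% of all genes. Those that moved higher were the 3 with a 5′ hairpin, FTL at 1.03, FTH1 at 0.88 and SLC40A1 at 0.63. ACO1 at −1.75 and TFRC at −0.55 moved lower, and SLC11A2 at −0.10 and IREB2 at 0.12 moved in neither direction. The size of 0.5 was not reached by TFRC without fraction 7 (−0.15) or by SLC40A1 without fraction 6 (0.35), nor with size factors by FTH1 (0.33) and FTL (0.40). The median relative shift was 0.12 over the 7 mRNAs and 0.88 over those with a 5′ hairpin, against −0.33 over the other 4, a difference of 1.21 fractions, and it is 0 over all genes by definition. These are few genes and not replicates, and the difference was not tested.

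The starting position limits what the relative shift can show. An mRNA cannot lie below fraction 1, so the lowest relative shift that FTL could have had was 0.69 and that of FTH1 was 0.39. FTL thus had to pass the size of 0.5 whatever arsenite did. Set against genes whose control position was within 0.25 fractions of its own, each ferritin lay lower rather than higher, but few genes lie so low and many of these were poorly measured. FTL shifted by −0.43, against a median of 0.01 over 7 genes including itself, and 5 of the other 6 were listed at 0 in at least 1 library. The 1 that was not, MAN1A2, shifted by −0.0453. FTH1 shifted by −0.57, against a median of −0.29 over 13 genes including itself, and 6 of the other 12 had a 0. The 6 without a 0 had a median of −0.24 and a range of −0.37 to −0.0453. SLC40A1 shifted by −0.82 against −0.90 over 1249 genes, TFRC by −2.01 against −2.01 over 1575 genes and SLC11A2 by −1.55 against −1.59 over 3874 genes, and 53.6, 50.1 and 52.2% of these sets had a lower shift, close to the middle. IREB2 shifted by −1.33 against −1.69 over 3451 genes, less than most of its set. ACO1 shifted by −3.21 against −2.49 over 140 genes, and 6.4% of those had a lower shift. On this footing the difference between mRNAs with a 5′ hairpin and the rest was −0.30 fractions, the opposite direction, and −0.35 when set against the other genes with no 0. For the ferritins this value rests on the few genes just described.

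**Figure D3:**
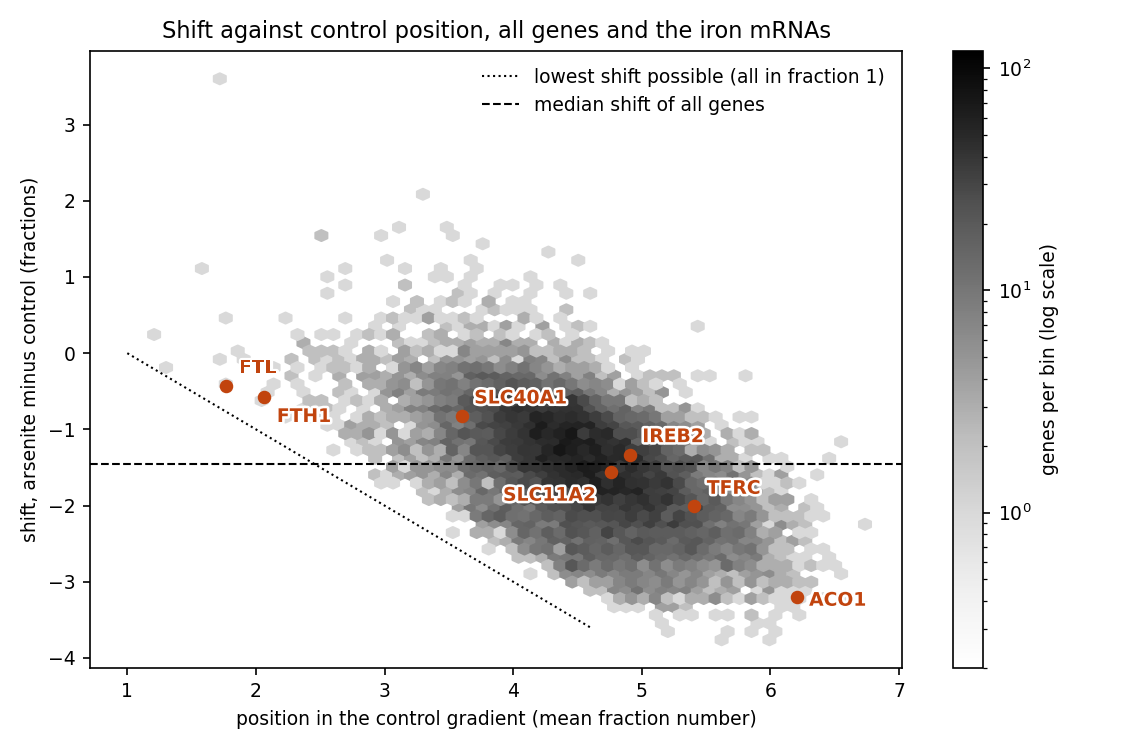
Shift (arsenite minus control, fractions, y axis) against position in the control (mean fraction number, x axis), with all 13148 genes as shaded bins and the 7 mRNAs as points. The dashed line is the median shift of −1.46, and the dotted line is the shift of an mRNA that would lie wholly in fraction 1 with arsenite; FTL and FTH1 lie close to it.

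The position of the ferritins was also low for the length of their coding sequence, which limits how many ribosomes an mRNA can carry. The coding sequence has 549 nt in FTH1 and 525 nt in FTL, without the stop codon. FTH1 lay at 2.07 in the control, against a median of 4.29 and quartiles of 3.95 and 4.58 over the 576 genes with a coding length within 10% of its own, of which 1 lay lower. FTL lay at 1.77, and none of its 510 genes of like length lay lower. In control fraction 1 FTH1 had 48.1% of its total, against a median of 4.41% over genes of like length. With arsenite 5 of the genes of like length lay below FTH1 and none below FTL, though the distance was smaller, since the median position of these genes was 2.48 for the length of FTH1 and 2.44 for that of FTL. Lengths are from 1 transcript per gene.

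For the longer mRNAs the placing differed by gene. SLC40A1, with 1713 nt, lay below its like in both gradients, at 2.78 with arsenite against a median of 3.17 and at 3.60 in the control against 4.59 over 1478 genes. SLC11A2, with nearly the same coding length of 1683 nt, lay at 3.21 against 3.16 with arsenite and at 4.76 against 4.6 in the control. TFRC with 2280 nt lay at 3.40 against 3.34 with arsenite and at 5.41 against 4.67 in the control, where 86.7% of genes of like length lay lower. ACO1 with 2667 nt lay at 3.0 against 3.44 with arsenite and at 6.20 against 4.74 in the control, so it was below its like in the arsenite gradient and above 98.7% of them in the control gradient. IREB2 with 2889 nt lay near the middle in both, at 3.58 against 3.47 with arsenite and 4.91 against 4.82 in the control.

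**Figure D4:**
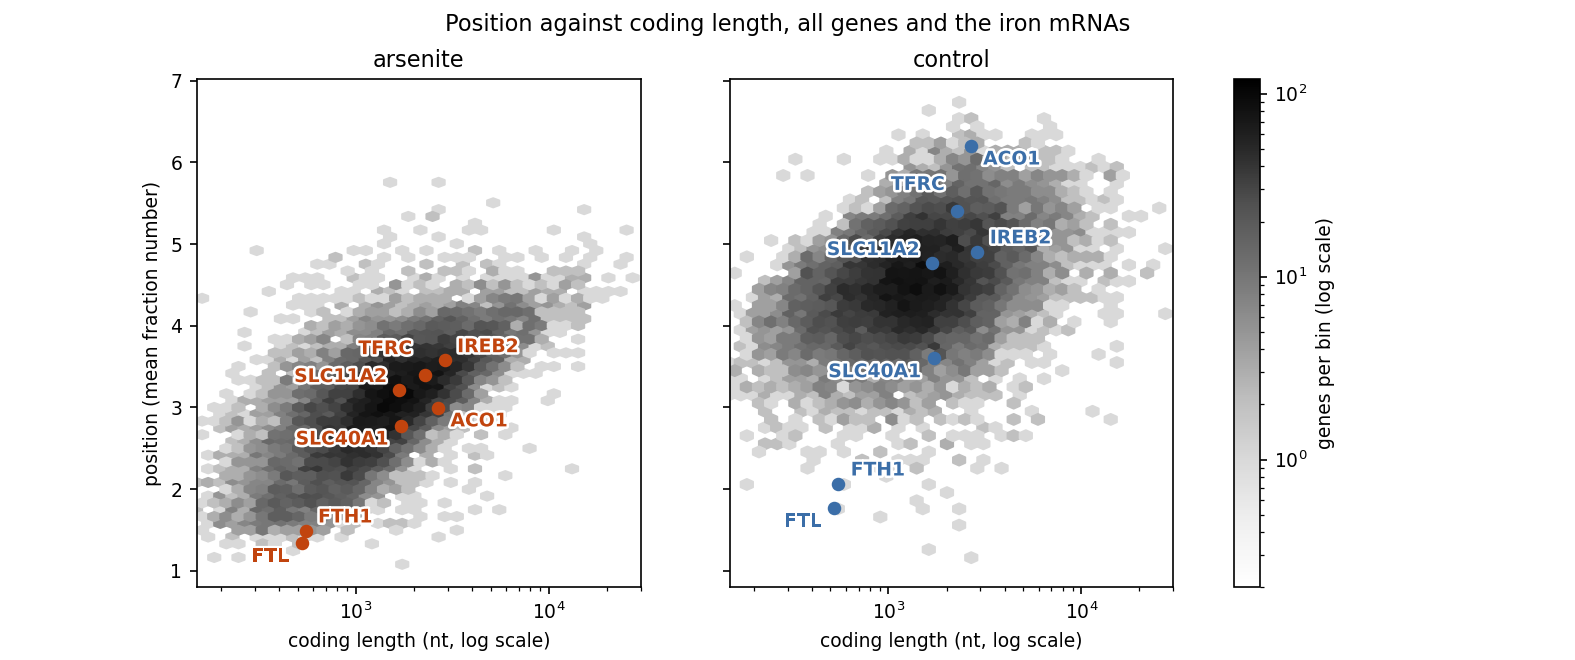
Position (mean fraction number, y axis) against coding length (nt, log axis) with arsenite (left) and in the control (right), with genes as shaded bins and the 7 mRNAs as points. FTH1 and FTL lie below nearly all genes of like length, and the gap is wider in the control.

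Other mRNAs with the same 5′ hairpin pattern did not lie where the ferritins did. The 15 genes other than FTH1, FTL and SLC40A1 that held the match with 5 pairs in the 5′ untranslated part had a median position of 3.37 with arsenite, with a range of 2.78 to 4.01. In the control their median was 4.50, with a range of 3.75 to 5.93, so none lay as low as the ferritins in either gradient. Of the 15, 5 moved higher and 3 lower, against 23.6% and 24.0% of all genes, and with so few genes these counts do not set the 15 apart. Of the 5, CCDC116 and CHRNA10 were each listed at 0 in 3 libraries. A match in these letters is a description and does not show that a protein binds there.

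Among further genes of iron metabolism, more moved lower than higher. Of 84 genes in 6 lists, 74 were in the table, and 33 of these (44.6%) moved lower, 6 (8.11%) moved higher and 35 did neither, against 24.0% and 23.6% of all genes. The median relative shift was −0.38. Centred on genes of like coding length the counts were 30 lower and 8 higher, and centred on genes of like control position they were 28 and 5. Both comparisons were chosen after seeing the data. The shares of all genes just given belong to the main centring and were not taken for these, so they are no baseline for these counts. The lists were not tested against other genes.

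Heme synthesis, transport and breakdown had a median relative shift of −0.51. Of its 21 genes 12 (57.1%) moved lower and 2 (9.52%) higher, against 24.0% and 23.6% of all genes. BLVRB, a biliverdin reductase, had the lowest value, −1.61, and lay at 1.92 with arsenite and 4.98 in the control. SLC25A37, the mitochondrial iron importer mitoferrin 1, had the highest, 1.07, and lay at 3.31 with arsenite and 3.70 in the control. HMOX1, the stress-induced heme oxygenase, moved lower (−0.99), and UROS, an enzyme of heme synthesis, was the other gene that moved higher (0.52). Iron-sulfur cluster assembly had a median of −0.40, with 12 of 27 genes (44.4%) moved lower and 2 (7.41%) higher, against the same shares of all genes. CIAPIN1, which acts in cytosolic cluster assembly, had the lowest value, −1.57, and ISCA1, a mitochondrial assembly factor, the highest, 0.77. BOLA3, another mitochondrial assembly factor with a coding length of 321 nt, had 74.3% of its total in fraction 1 with arsenite and 39.9% in the control, and lay at 1.54 with arsenite and 2.54 in the control, with a relative shift of 0.46 below the size of 0.5. Against genes of like control position the values were 0.56 for SLC25A37, 0.08 for ISCA1, −0.38 for UROS and −0.72 for BOLA3. On that footing BLVRB at −1.33, CIAPIN1 at −1.06 and HMOX1 at −0.68 stayed lower.

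The genes that control the regulatory proteins and ferritin behaved unevenly. FBXL5, the iron-sensing subunit of the ligase that degrades IRP2, lay at 2.83 with arsenite and 4.26 in the control and had a relative shift of 0.03. SKP1, another subunit of that ligase, moved lower (−0.89), and HERC2, a ligase that acts on FBXL5, had the highest value of this list of 5 at 0.36, below the size of 0.5. Of 5 genes of ferritin iron delivery and turnover, 2 moved lower and none higher, against 24.0% and 23.6% of all genes, and the median was −0.49. With so few genes these counts do not set the list apart. PCBP1, a chaperone that hands iron to ferritin, moved lower (−1.25), as did NCOA4, the receptor that takes ferritin to lysosomes (−0.69), and PCBP3 had the highest value, 0.01.

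Of 9 measured genes of iron uptake, reduction and release, 3 moved lower and 1 higher, against 24.0% and 23.6% of all genes, with a median of −0.23. So few genes do not set the list apart. STEAP1 had the lowest value, −1.43, and SLC39A8, a metal transporter, the highest among genes with no 0, 0.23. TF, the transferrin gene, was the one that moved higher (3.13), but it was listed at 0 in 8 of the 16 libraries. The list of other mRNAs reported to carry an iron-responsive element had 7 measured genes, of which 3 moved lower and 1 higher, with a median of −0.38. This list too is too small to be set apart from the same shares of all genes. SDHB, a subunit of succinate dehydrogenase whose element is known from Drosophila, had the lowest value, −1.33, with 62.1% of its total in fraction 1 with arsenite and 7.02% in the control. CDC42BPA, a kinase of the cytoskeleton, had the highest, 0.70.

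**Figure D5:**
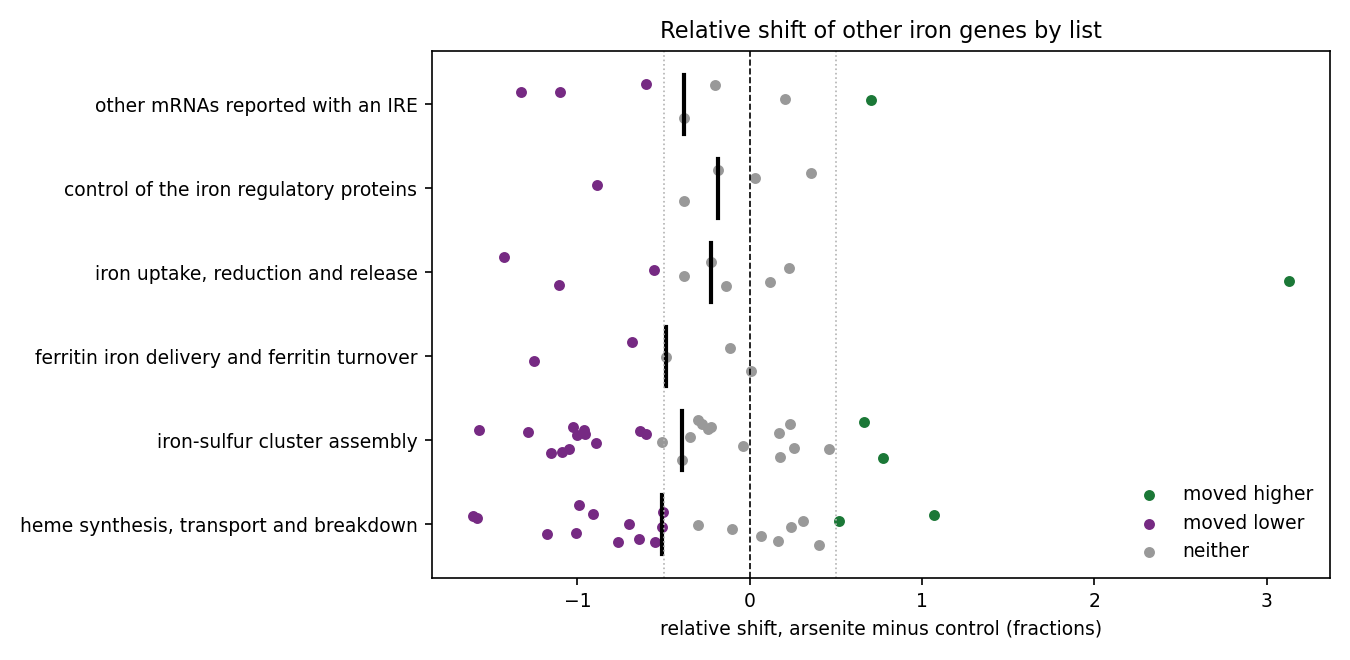
Relative shift (arsenite minus control, fractions, x axis) of the 74 other iron genes, 1 point per gene, by list (y axis), with the list medians as black bars, the threshold of 0.5 fractions in either direction as dotted lines and the median of all genes at 0. Points are spread vertically at random, and all 6 list medians lie below 0.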

How the data were processed

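The authors deposited 1 table of 13148 genes for 16 libraries, made from RNA extracted with Trizol and primed by a method named NSR, per the labels' protocols. Its library values are in the unit fraction, a gene's share over the 8 fractions of a gradient, and refer to exons of RefSeq genes, per the file headers. There were also 3 score columns by the authors (a mean fraction number per gradient and the difference), which a recomputation matched within 9.99e-15. Per the submitters' processing notes, reads were placed on hg19. Not given in the sources used here: aligner, counting, strand, gene filter and scaling of fractions. Depth is unknown, so no interval is given. 11625 genes had no 0.

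Groups were taken from the sample titles. With 1 library per group no test was made, and genes are placed by percentiles and counts over all genes. The 7 genes and the iron lists were chosen with earlier results of these data known. Named genes are the 7, the extremes of each list among genes with no 0, and for each of the 7 the 3 nearest profiles among genes with no 0; others were named after their values were seen. Some genes that this rule names are not reported here. Coding parts came from 1 transcript per gene of GENCODE 29. They were matched by symbol for 13051 genes (99.3%), of which 734 by an older symbol or an ID. Complete transcripts were preferred, then those ranked closest to a principal isoform, then the longest coding part. Some genes may therefore have the length of another isoform. The call rule was tested on simulated profiles, made only from genes with no 0 and a control position in the middle of the gradient. FTH1, FTL and ACO1 lie outside that range, so the simulation says nothing about their calls. Python 3.11.15, numpy 2.4.6 and pandas 2.3.3 were used. Alternatives were size factors, 1 percentage point added to shares, leaving out each fraction, genes with no 0, the 50% point, other centring, thresholds and pseudocounts.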

Additional observations from a re-analysis of the deposited data

How the results depend on the processing

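No paired analysis was possible because each treatment and fraction has 1 library and the labels give no replicate numbers. With size factors 1 of the 7 mRNAs moved higher, SLC40A1, while FTH1 (0.33) and FTL (0.40) fell below the threshold, and the median relative shift was 0.23. Centred on genes of like control position, none moved higher and 1 moved lower. FTH1 then lay at −0.28, FTL at −0.44 and TFRC at 0.00087, the median was again 0.00087, and the difference between mRNAs with a 5′ hairpin and the rest was −0.30. Against the other genes of like control position with no 0, a comparison chosen after seeing the data, FTH1 lay at −0.33 and FTL at −0.38, the median was −0.00202 and the difference −0.35. Centred on genes of like coding length the median was −0.0485, and over genes with no 0 it was 0.0485. With the 50% point the difference was 1.83. At a threshold of 1 fraction, 1 mRNA moved higher, 1 moved lower, and the iron lists held 2 higher and 15 lower. At 0.25 fractions the lists held 10 higher and 37 lower. The share of all genes called was taken only for the main setting, so the counts under other settings have no baseline. Leaving out each fraction in turn gave 2 to 3 mRNAs moved higher, 1 to 2 moved lower, a median from −0.10 (without fraction 5) to 0.31 and a difference from 0.75 (without fraction 7) to 1.55. TFRC lost its call without fraction 3 (−0.42), 7 (−0.15) or 8 (−0.42), and SLC40A1 without fraction 6 (0.35) or 7 (0.496), whereas FTH1, FTL and ACO1 kept theirs in all 8 cases. Keeping the direction is part of the rule for a call. With all fractions the lowest relative shift possible was 0.69 for FTL and 0.39 for FTH1, so the kept calls of the ferritins show little. The cause of the changes between settings was not tested. With size factors the log2 ratio changed sign in 23 of the 56 pairs of mRNA and fraction, from 2 of 8 fractions for TFRC and ACO1 to 5 of 8 for FTH1. Among ratios that were at least 1 in size, 8 did so: FTH1 in fraction 5 (0.0224), SLC40A1 in fractions 2 (−0.0631), 5 (0.0487) and 7 (1.14), and TFRC (0.70), SLC11A2 (0.11), ACO1 (0.10) and IREB2 (0.26) in fraction 6. The share in fractions 5 to 8 was then higher with arsenite for FTH1, FTL, IREB2 and SLC40A1 (44.9% with arsenite and 26.1% in the control). It was lower for TFRC (55.2% and 74.2%), SLC11A2 (50.9% and 57.4%) and ACO1 (44.4% and 88.9%). Because size factors level the typical gene across libraries by construction, these reversals cannot decide a direction. In 81 other changes of setting for a single mRNA, the direction and the call of its relative shift were kept. This count is not independent support. Many of these settings left out a fraction, where the direction of an mRNA that moved is fixed by the definition of moved. For SLC11A2 and IREB2 a kept call means only that neither direction was called. With 4 of 5 stem pairs 109 genes had a match in the 5′ untranslated part and 595 in the 3′ part, and with any coding transcript 30 and 114.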
